A study of Mus musculus with 2 samples.

Results

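Glis3 carried more peaks than any other gene in the list of Usp39 binding peaks in AML12 cells, and the gene was chosen by that count, so the count itself is a description and was not tested. Its members are the 778 peaks whose annotated symbol is Glis3, out of a list that runs in 2 passes of 17990 peaks each, or 2.16% of all its peaks (95% Wilson interval 2.02 to 2.32%). The gene with the next highest number, Tns1, which encodes a focal adhesion protein, had 304. All 778 peaks lay inside the annotated body of Glis3 on the mm10 build, chr19:28258851-28680077 on the minus strand, and no peak named for another gene overlapped it.

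The study asked where Usp39 meets RNA in AML12 cells, an established line of mouse hepatocytes. RNA immunoprecipitation followed by sequencing (RIP-seq) gave 2 libraries, the IP taken with anti-FLAG magnetic beads and the Input with no antibody, each without a replicate library. The study's reporting notes mention independent experiments for RIP-seq, and how these relate to the libraries or to the list is not stated. Both groups came from cells transfected with a vector that expresses FLAG-tagged Usp39 when doxycycline is added, so the bait was the expressed FLAG protein and not the cells' own Usp39. Doxycycline was given for 72 h, cross-linking of the nuclei by paraformaldehyde lasted 5 min, and the RNA was sheared by sonication. One list of peaks was made, with a position, a p-value and an annotation for each, and no column of it names a library. IP could therefore not be set against Input at Glis3, and Usp39 contact and a high level of unspliced Glis3 RNA cannot be told apart. The depth of either library is unknown from these values. Of 6 markers of hepatocytes, Krt18 and Krt8, keratins of simple epithelia, had 16 and 14 named peaks, while Alb, Apoa1, Ttr and Hnf4a, which mark liver secretion and hepatocyte transcription, had 0. The list places peaks and does not measure expression.

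Glis3 encodes a Krüppel-like zinc finger transcription factor that can activate or repress its target genes. It is needed for the formation of pancreatic beta cells and for insulin gene transcription, for thyroid hormone synthesis, and for the normal architecture of kidney tubules, where it is found at the primary cilium. Usp39 belongs to the tri-snRNP of U4/U6 and U5, a particle that joins the spliceosome after the 5′ splice site and the branch region of an intron have been recognised. Introns are read by the spliceosome through short signals at their ends, a GT at the first bases and, after a run of pyrimidines, an AG at the last.

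The splice sites of the introns with the most peaks, introns 4 and 2, are shown because they are the places where a tri-snRNP protein works, and those of intron 1 because it held no peak (a contrast chosen after the values were seen). Each run covers 30 bases of the sense strand of mm10, and the positions were chr19:28679576-28679605 (intron 1, 5′), chr19:28666232-28666261 (intron 1, 3′), chr19:28665733-28665762 (intron 2, 5′), chr19:28540404-28540433 (intron 2, 3′), chr19:28530853-28530882 (intron 4, 5′), chr19:28357948-28357977 (intron 4, 3′). Capitals mark the first and the last bases of the intron. The 20 bases before the AG held 15 pyrimidines in intron 1, 14 in intron 2 and 15 in intron 4.
intron 1 5′ splice site: cggttacctgGTaagtggatgccataggaa
intron 1 3′ splice site: ctgcctttgtttttgttttaaacAGactta
intron 2 5′ splice site: cctgagaaagGTaggattgtcacttgggaa
intron 2 3′ splice site: gctaacctgattcgtttgtttttAGgggct
intron 4 5′ splice site: caagtgtacgGTgagttggagtttccgagg
intron 4 3′ splice site: actaaaccttgttttctttttgcAGttcga

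The peaks with the smallest p-values, and 5 intronic peaks that hold GGCCAC or GCCATA (the DNA form of GCCAUA) on the sense strand, are shown as examples of the sequence under intronic peaks. The words are elements that the study found by a motif search of its own binding peaks. The strong peaks lay at chr19:28499601-28499700, chr19:28499701-28499800 and chr19:28529201-28529300, all in intron 4. The word peaks lay at chr19:28619401-28619500 and chr19:28643801-28643900 in intron 2 and at chr19:28508701-28508900, chr19:28463601-28463700 and chr19:28523801-28523900 in intron 4. All are given 5′ to 3′ on the minus strand, and capitals mark either word.
strong peak 1: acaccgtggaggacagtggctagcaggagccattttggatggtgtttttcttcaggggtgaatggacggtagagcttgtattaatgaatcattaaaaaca
strong peak 2: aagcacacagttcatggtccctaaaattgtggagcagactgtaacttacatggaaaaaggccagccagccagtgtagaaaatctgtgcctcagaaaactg
strong peak 3: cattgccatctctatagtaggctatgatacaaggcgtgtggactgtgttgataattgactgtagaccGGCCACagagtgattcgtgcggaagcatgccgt
word peak 1: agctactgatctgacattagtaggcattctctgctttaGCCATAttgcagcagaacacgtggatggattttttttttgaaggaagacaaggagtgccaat
word peak 2: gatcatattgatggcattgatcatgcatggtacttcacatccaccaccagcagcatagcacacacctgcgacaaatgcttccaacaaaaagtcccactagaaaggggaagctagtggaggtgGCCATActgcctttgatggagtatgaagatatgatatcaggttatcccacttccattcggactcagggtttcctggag
word peak 3: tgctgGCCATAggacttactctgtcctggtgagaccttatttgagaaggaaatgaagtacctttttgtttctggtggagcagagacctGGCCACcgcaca
word peak 4: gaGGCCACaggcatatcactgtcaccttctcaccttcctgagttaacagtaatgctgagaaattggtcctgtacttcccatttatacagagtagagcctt
word peak 5: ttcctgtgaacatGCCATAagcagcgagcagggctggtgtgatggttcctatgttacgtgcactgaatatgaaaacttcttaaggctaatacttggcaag

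Of the 3 strongest peaks, only strong peak 3 held one of the words. Word peak 3 held both, 1 copy of each. Strong peaks 1 and 2 lie end to end on the genome and were listed in different passes of the list, which is described next.

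Each pass of the list runs once over all the chromosomes, and the sources used here do not say what separates the passes. Glis3 had 398 peaks in the first pass and 380 in the second. Over the 43 stretches of 10 kb from the transcript start, the counts of the passes moved together (Pearson r = 0.963, a description across stretches of 1 gene). Of the 778 peaks, 342 (44.0%, 40.5 to 47.5%) overlapped a peak of the other pass, 78 (10.03%) had one with the same start and end, and 639 (82.1%, 79.3 to 84.7%) had one within 100 bases. Among the first-pass peaks, 196 (49.2%) had the nearest second-pass start exactly 100 bases higher and 23 (5.78%) had it 100 bases lower. The same offsets were found in 44.5% and 3.40% of the other peaks in genes on the plus strand and in 43.6% and 3.23% of those on the minus strand, so the shift followed the genome coordinate in genes of either strand. Joined where they lay within 100 bases of each other, the 778 peaks came to 300 separate places with a median width of 200 bases. Intervals given here cover counting error only and are too narrow, because the passes repeat much of the same sequence. The passes are not known to be independent, so likeness between them, here and below, is no replication.

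The peaks were nearly all intronic and mostly of a single bin, though less often so than in the whole list. A single bin of 100 bases made up 552 of them (71.0%, 67.7 to 74.0%), beside 78.5% of all peaks and 84.0% of all intronic peaks. A further 140 were 200 bases wide, 50 were 300 and 29 were 400. Together they covered 90600 bases, 21.5% of the gene. By the deposited annotation 760 were intronic (97.7%, 96.4 to 98.5%), against 41.5% of the whole list, and these made up 5.09% of its 14932 intronic peaks. The others were classed as 3′ UTR (10), exon (6) and promoter (2). Set against the principal coding transcript, which has 11 exons and 10 introns, 764 peaks (98.2%) lay wholly in introns and 14 touched an exon. The gene itself is nearly all intron. Introns 2 and 4 make up 70.8% of it, and the other introns 115.4 of its 421.2 kb. The high intronic share therefore follows the make-up of the gene and does not show a preference for introns within it.

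Introns 2 and 4 held nearly all of the peaks. Intron 4, 172.9 kb long, had 430 peaks, or 2.49 per kb (exact Poisson 95% interval 2.26 to 2.73), and intron 2, 125.3 kb long, had 291, or 2.32 per kb (2.06 to 2.60). The first and second pass had 221 and 209 peaks in intron 4 and 147 and 144 in intron 2. Together these introns held 721 peaks (92.7%, 90.6 to 94.3%) on 70.8% of the gene. The intervals of their densities overlap, so intron 4 and intron 2 could not be ranked by density, and their order turned when neighbouring peaks were joined.

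The remaining introns were sparse. Intron 6 (36.8 kb) had 18 peaks, intron 7 (18.3 kb) had 9, intron 9 (19.6 kb) had 10, intron 8 (14.95 kb) had 4 and intron 3 (8.21 kb) had 2, which are 0.489, 0.492, 0.510, 0.268 and 0.243 peaks per kb. Introns 5 and 10, of 3.47 and 0.746 kb, had 0. Intron 1 also had 0, although at 13.4 kb it is longer than intron 3. The upper end of its exact Poisson 95% interval was 0.276 peaks per kb. Another annotated coding transcript starts 13.392 kb from the gene start, near the end of intron 1, and so lacks most of that intron. The deposit named 200 peaks for that transcript and 468 for a retained-intron transcript starting at 139.657 kb. It named 2 for a nonsense-mediated decay transcript starting at 0.411 kb, and 0 for the coding transcripts that begin at the gene start. Exon 1, upstream of intron 1, held 2 peaks. A transcript name comes from the annotation of a peak and does not measure use of a start. Which start these cells use was not tested. The 8 introns other than 2 and 4 had 43 peaks in 115.4 kb, or 0.372 per kb, below both of them.

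**Figure D1:**
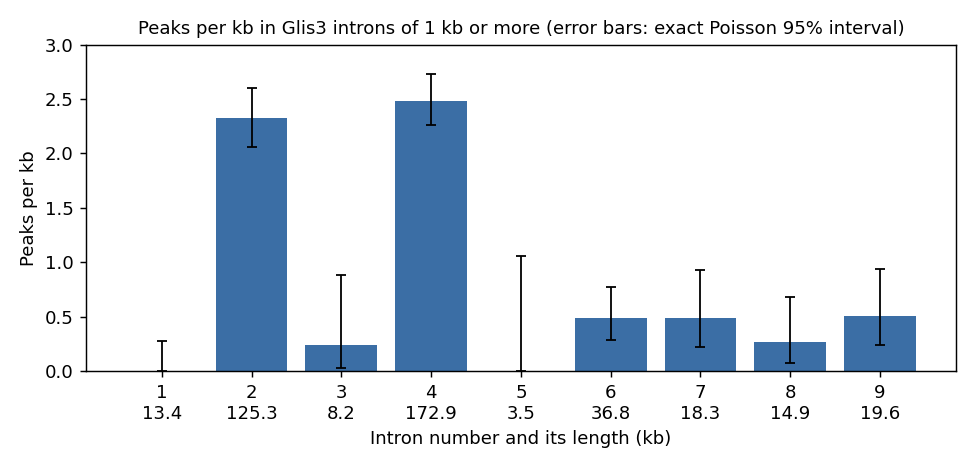
Peaks per kb (vertical axis) in each Glis3 intron of 1 kb or more, with intron number and length in kb on the horizontal axis and error bars for the exact Poisson 95% interval of the count. Introns 2 and 4 stand at 2.32 and 2.49 peaks per kb, and none of the others is above 0.510.

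Along the gene the peaks formed a pair of slopes, each starting just downstream of an exon and thinning out towards the next. Of the 43 stretches of 10 kb, 20 had 20 or more peaks and held 651 of the 778, and another 20 had 10 or fewer. The first stretch held 2 peaks, both over exon 1. The stretch from 20 to 30 kb, in intron 2, held 43, and that from 130 to 140 kb, at the end of the same intron, held 1. The densest stretch, 160 to 170 kb, lies early in intron 4 and held 48. The stretch from 310 to 320 kb, still in intron 4, held 0. The widest joined place, 3600 bases at 159.4 kb, was made of 19 peaks, 9 of the first pass and 10 of the second. By position, 551 peaks (70.8%, 67.5 to 73.9%) lay nearer to the 5′ than to the 3′ end of the gene.

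**Figure D2:**
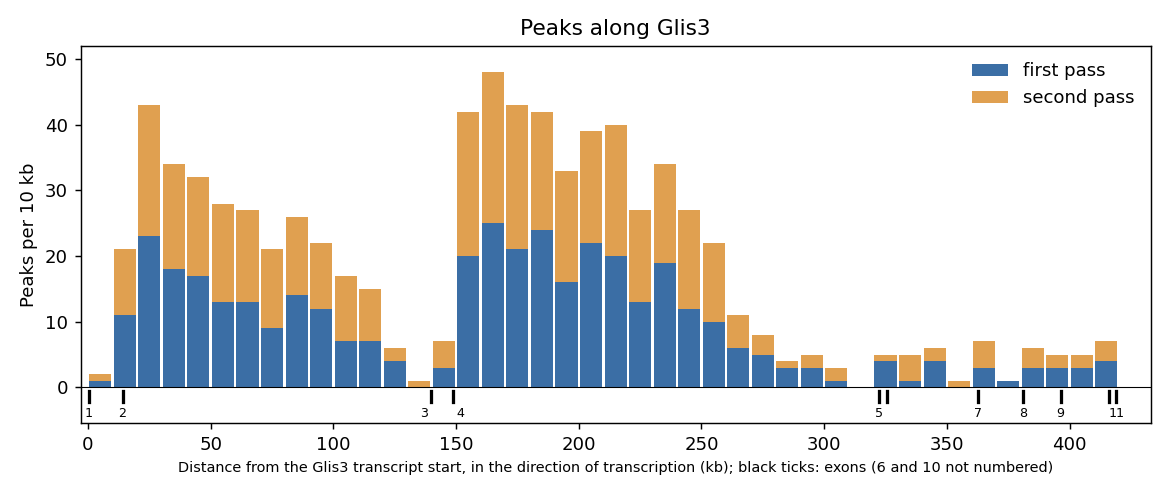
Peaks per 10 kb (vertical axis) against the distance from the transcript start in kb (horizontal axis), stacked by pass, with exons as black ticks under the axis. Counts are highest, 43 and 48, soon after exons 2 and 4, fall along introns 2 and 4, and stay at 7 or fewer per 10 kb beyond exon 5.

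Within intron 2 the density fell in every step from the 5′ to the 3′ end. In 5 equal parts it had 93, 76, 61, 45 and 16 peaks, which is 3.71 per kb in the first part and 0.638 in the last. Intron 4 had 153, 130, 99, 40 and 8, or 4.42 per kb in the first part and 0.231 in the last. The passes gave like counts, with 76 and 77 peaks in the first part of intron 4 and 4 and 4 in its last. A p-value of 1e-05 or less was reached by 14.4, 10.8, 8.08, 2.5 and 0% of the peaks over the parts of intron 4, and by 12.9, 5.26, 4.92, 4.44 and 6.25% over those of intron 2, where the last parts hold only 8 and 16 peaks. The median gap between neighbouring peaks widened along with this, being 400, 450, 600, 900 and 1100 bases over the parts of intron 2 and 400, 400, 600, 1250 and 1950 over those of intron 4. Intron 2 had 36 peaks in its first 10 kb and 1 in its last 10 kb, and intron 4 had 40 and 0. The share of peaks nearer to the 5′ end was 77.9% in intron 4 (73.7 to 81.6%) and 68.7% in intron 2 (63.2 to 73.8%).

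The same slope was present in other genes. Outside Glis3, 266 introns of 50 kb or more held 2018 peaks, and their 5 equal parts had 43.0, 29.4, 15.8, 7.83 and 4.01% of them, beside 35.6, 30.2, 23.02, 9.30 and 1.86% in Glis3 intron 4 and 32.0, 26.1, 20.96, 15.5 and 5.50% in intron 2. Glis3 introns 4 and 2 thus had a smaller share in the first part than the pooled other long introns, and a larger one in the middle part. In 19 of the 20 other long introns with 20 or more peaks, over 50% lay nearer to the 5′ end (median 87.3%, range 48 to 100%). These introns had 0.142 to 1.49 peaks per kb, under the 2.49 and 2.29 of Glis3 introns 4 and 2 by the same deposited intron class. The next by count were intron 1 of Magi1, a scaffold protein of cell junctions, with 146 peaks, intron 3 of Asap1, a regulator of Arf GTPases, with 98, and intron 3 of Tns1 with 78. No test was made of these differences, because Glis3 was chosen on its number of peaks.

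**Figure D3:**
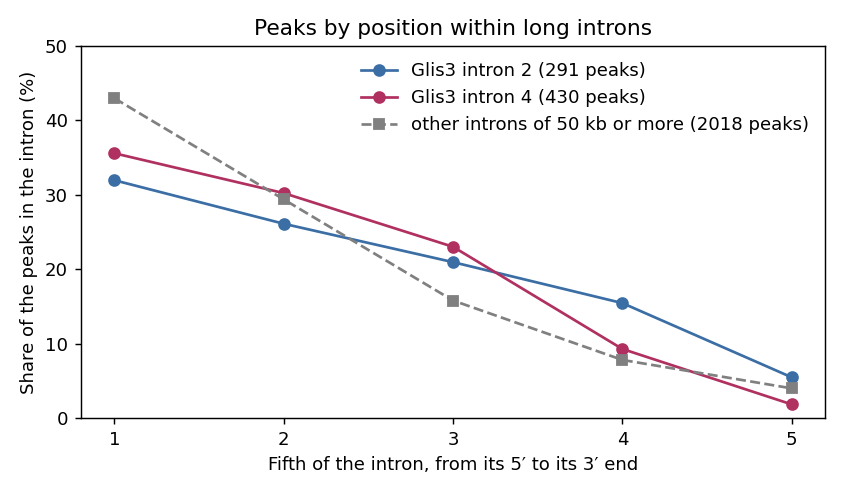
Share of an intron's peaks in % (vertical axis) in each of 5 equal parts from the 5′ to the 3′ end (horizontal axis), for Glis3 intron 2, Glis3 intron 4 and all other introns of 50 kb or more together. All 3 lines fall, reaching 5.50, 1.86 and 4.01% in the last part.

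Most gaps between neighbouring peaks were short. The 776 gaps between peak starts, taken within a pass, had a median of 500 bases (quartiles 300 and 900) and a mean of 1080, where evenly spread peaks would stand 1083 bases apart. That mean follows from gene length and peak number. No random placement was made, so a median below it does not tell clustered from random peaks. The shortest gap, 200 bases, was found 115 times (14.8%), and 300, 400, 500 and 600 bases were found 113, 102, 90 and 66 times. Tns1, Asap1 and Oxr1 had no gap of 100 bases either, so the shortest gap was not particular to Glis3. Gaps of 1000 bases or less made up 78.4%. The counts declined at each step from 200 to 1100 bases, and no spacing within that range stood out above the shortest. Introns 2 and 4 both had a median of 500.

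Long gaps were few, and the longest fell at the same place in both passes. Only 23 gaps exceeded 5 kb and 15 exceeded 10 kb. The longest, 26.5 kb in the second pass and 23.5 kb in the first, ran from the last peaks of intron 4 at 302.7 and 302.8 kb to the first peaks of intron 6 at 329.2 and 326.3 kb. Within intron 4 the longest was 16.7 kb. The gap across intron 1, from exon 1 to exon 2, was 13.9 and 13.8 kb in the first and second pass.

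Set beside other long genes, the Glis3 spacing was closest to that of Tns1. The median gap was 500 bases in Glis3 (1.85 peaks per kb over its 421.2 kb), 500 in Tns1 (1.42 peaks per kb), 1100 in Asap1 (0.642 per kb) and 900 in Oxr1, an oxidation resistance gene (0.418 per kb).

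**Figure D4:**
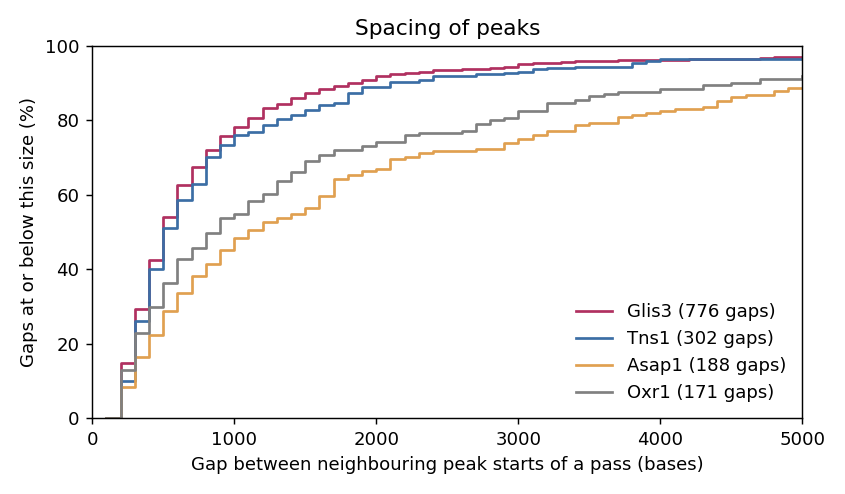
Share of gaps in % (vertical axis) at or below a given size in bases (horizontal axis, to 5000) for Glis3, Tns1, Asap1 and Oxr1. The Glis3 and Tns1 lines run close together with medians of 500, and those of Oxr1 and Asap1 lie lower with medians of 900 and 1100.

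The Glis3 peaks had a median strength close to that of the list, with a smaller share of peaks at either extreme. The median of the −log10 p-value was 3.73 for Glis3 (quartiles 3.42 and 4.32), 3.68 for all peaks and 3.42 for the intronic peaks of other genes. A p-value of 1e-05 or less was reached by 71 Glis3 peaks (9.13%, 7.30 to 11.4%), against 14.4% of all peaks and 8.68% of the intronic peaks of other genes, where the interval of the Glis3 share includes the intronic value. By intron, 45 of these 71 lay in intron 4 and 22 in intron 2. The weakest p-value in the list, 0.000736, was held by 146 Glis3 peaks (18.8%) and by 25.8% of all peaks. The p-values of the single-bin peaks took only 18 values, so ranks among them are coarse. Of the 71 strongest peaks, 69 had a peak of the other pass within 100 bases.

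The smallest p-value, 5.08e-13, belonged to strong peak 1, a first-pass peak 180.4 kb from the start, and the adjoining second-pass peak, strong peak 2, had 1.18e-10. Strong peak 3, 150.8 kb from the start, had 1.75e-09. A first-pass peak in intron 2, chr19:28654301-28654400, had 4.24e-09, and next came 3 first-pass peaks tied at 1.03e-08, chr19:28637201-28637300 in intron 2 and chr19:28507401-28507500 and chr19:28469101-28469200 in intron 4. All of these were single bins.

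**Figure D5:**
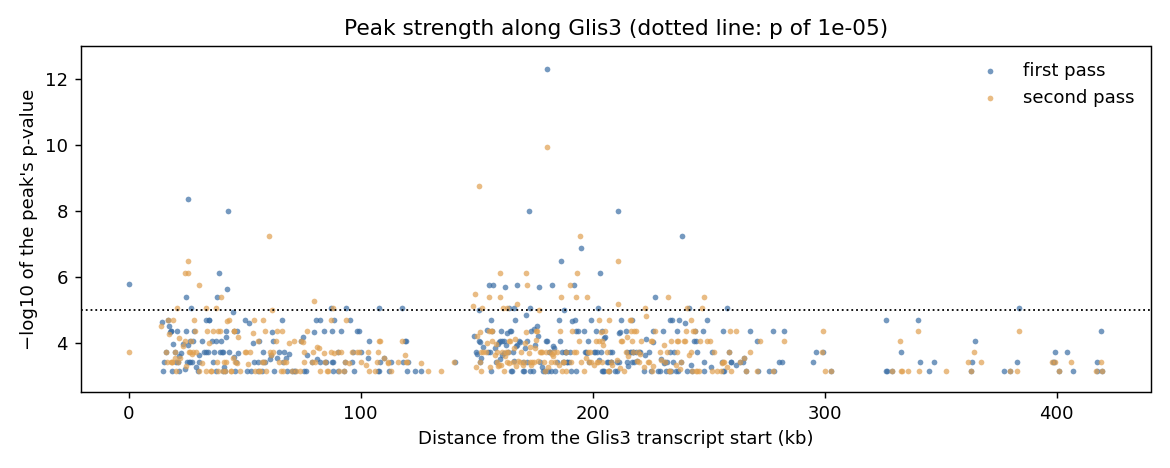
The −log10 of each peak's p-value (vertical axis) against its distance from the transcript start in kb (horizontal axis), coloured by pass, with a dotted line at a p-value of 1e-05. Each of the 778 points is 1 peak, and the 71 at or above the line lie mainly in the stretches where peaks are dense.

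Few peaks lay at splice sites. Within 100 bases of the 20 splice sites there were 7 peaks (0.900%, 0.437 to 1.85%), while 1.26% of the 4211 bins of the gene lay as near (0.964 to 1.64%). All 7 touched exon 1, 2 or 4 and were 300 to 1000 bases wide, so they reach a site more readily than a bin of 100 bases. At 5′ splice sites there were 6 (0.771%, beside 0.712% of bins) and at 3′ splice sites 1 (0.129%, beside 0.712%). The 71 peaks of p 1e-05 or less gave the opposite order, with 3 of them (4.23%) as near, beside 1.26% of bins. Those 3 lay on exons 1 and 4 and were 300, 300 and 700 bases wide. Widths of peaks and bins were not matched, so neither order compares like with like. None of the 764 peaks wholly inside introns lay within 100 bases of a splice site, the nearest being 253 bases away and the median 37.2 kb. The first peak of intron 4 began 272 bases after its 5′ splice site and that of intron 2 after 552 bases, while the last lay 19248 and 4992 bases before the 3′ splice sites shown above.

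Peaks touched 4 of the exons. Exon 1 had 2 peaks, exon 2 had 2, exon 4 had 3 and exon 11, which ends the transcript, had 7, and the other 7 exons had none. Those with peaks are the longest, at 482, 484, 1114 and 4265 bases in that order, and the others have 111 to 208 bases each. Exons are a small part of the gene, so these counts do not show that exons were avoided. The widest peak of the gene, 1000 bases at chr19:28530801-28531800 with a p-value of 6.27e-05, covered 928 of the 1114 bases of exon 4 and reached 72 bases into intron 4, across the 5′ splice site. In the second pass the same exon held peaks of 300 and 700 bases with p-values of 3.25e-06 and 7.66e-06. The deposited annotation classed all 3 as 3′ UTR; in an annotated nonsense-mediated decay transcript only 38 bases of the exon are coding, whereas all 1114 are coding in the principal one. The exon 1 peaks, classed as promoter, had p-values of 1.60e-06 and 0.000191 and the highest GC contents of the exon peaks, 68.7 and 68.3%. The 7 peaks over exon 11 were 1 or 2 bins wide.

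Peak sequence differed from the rest of the gene. The GC content was 45.5% in peaks (45.2 to 45.7%) and 42.4% in the 3305 bins with no peak (42.2 to 42.6%). These intervals take each base as independent, do not measure the spread between peaks, and are too narrow. Repeat-masked bases made up 11.0% of peaks and 18.2% of peak-free bins. Both differences held inside the introns, with a GC content of 44.6 against 41.9% and a masked share of 12.04 against 19.01% in intron 4, and 45.6 against 42.5% and 9.92 against 20.1% in intron 2. T on the sense strand was 27.5% of peak bases and 30.9% of the others, and CG dinucleotides were found at 13.9 against 10.7 per kb. Repeats and base composition bear on how reads map, and their part in the peak positions was not tested.

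The words shown in capitals above were no common feature of the peaks. GGCCAC was on the sense strand of 13 of the 552 single-bin peaks (2.36%, 1.38 to 3.99%) and of 55 of 3305 peak-free bins (1.66%, 1.28 to 2.16%), and on either strand of 6.52 and 3.75%. GCCATA was on the sense strand of 4 single-bin peaks (0.725%, 0.282 to 1.85%) and of 55 peak-free bins (1.66%, 1.28 to 2.16%), and on either strand of 2.90 and 3.48%. On the sense strand the intervals of peaks and bins overlap for both words, while for GGCCAC on either strand they do not (4.75 to 8.90% in peaks, 3.16 to 4.46% in bins). The study found both words in a list of peaks that includes these, so a higher share in peaks is no independent support. GC content was not matched either, being 44.4% in single-bin peaks and 42.4% in peak-free bins. Only exact copies of the words were counted. Copies of GGCCAC and GCCATA cannot share bases on one strand. Over all widths, 28 of the 778 peaks held GGCCAC and 19 held GCCATA in the sense direction, and 732 held neither.

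Genes inside and beside Glis3 had no peaks named for them. The sense intronic gene 4933413C19Rik, within intron 2, was overlapped by 5 peaks and the long noncoding gene D930032P07Rik, on the opposite strand at the 5′ end, by 2, all named Glis3. The sources used here do not say whether the calls used strand, so reads of D930032P07Rik and Glis3 cannot be told apart there. Of the 291 peaks in intron 2, 4 were classed as exonic in the deposit, and these were among the 5 that overlap 4933413C19Rik; the remaining one was classed as intronic. The neighbouring coding genes Pum3, Rfx3, Slc1a1 and 4430402I18Rik had 0 named or overlapping peaks. The next peaks outside the gene were those of Vldlr and Cdc37l1.

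Among listed genes related to Glis3 by family, pathway or tissue, named peaks were scattered. Of 57 such genes without Glis3 itself, 16 had at least 1 named peak (28.1%), beside 20.4% of all 21951 annotated protein-coding genes. Among the GLIS, GLI and ZIC zinc finger genes, Glis2 had 12 peaks and the other 9 besides Glis3 had 0. In the Hedgehog and Hippo group 7 of 12 had a peak, led by Tead1 (29), a DNA-binding partner of the Hippo coactivators, with 7 in Tead3, 4 in Wwtr1, the coactivator TAZ, and 3 in Yap1, in Cul3 and in Sufu, which binds GLI proteins in the cytoplasm; Tead4 had 1. Among beta cell genes, Foxa2, a forkhead transcription factor, had 4 and Mafa, an activator of insulin transcription, had 2, and all of these lay outside the gene bodies. Of 11 thyroid genes only Pax8, a transcription factor of thyroid and kidney, had peaks (21). Of 10 kidney and cilium genes, Pkhd1, the fibrocystin gene, had 27, Pkd1 4, Invs 3 and Pkd2 2.

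By 4 measures combined (intronic share, single-bin share, median −log10 p-value and peaks per kb), the genes most like Glis3 among 102 with 50 or more peaks were Polr2b, Tns1, Slc22a5, Airn and Nf2, at distances of 0.400, 0.488, 0.509, 0.569 and 0.759 in units of standard deviations. Only 17.7% of the Polr2b peaks lay in its own gene body. Glis3 ranked 3 by intronic share and 4 by gene length, but 41 by peaks per kb, and its median −log10 p-value of 3.73 was also the median over these genes. The peaks per kb include named peaks outside the gene body, so that rank is not one of coverage. Of genes ranked above Glis3 by it, Mir29b-1 and Gm5420 had 0% of their peaks in the gene body. Ndrg1 and Gclc, also above, had 100%, as did Glis3.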

How the data were processed

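RIP-seq libraries of IP (n = 1) and Input (n = 1) were processed by the authors. Per the labels and the methods, reads of 150 bases were trimmed with Trim Galore (version 0.6.1), checked with FastQC (version 0.11.9), freed of ribosomal RNA with Bowtie (version 1.2.3) and mapped to mm10 with HISAT2, (version for these libraries not given in the sources used here). Piranha called the peaks in 100-base bins, keeping those with a p-value up to 0.001. The p-value of each peak was used as deposited by the authors, with no adjustment stated. The count of peaks per gene was used as deposited by the authors. The sources used here do not say whether Input was used in the calls.

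Positions were set against GENCODE M21 and the mm10 sequence in Python 3.11.15 (pandas 2.3.3, numpy 2.4.6, scipy 1.17.1, matplotlib 3.10.9), by steps tested on simulated data. Shares have Wilson and counts exact Poisson 95% intervals. With 1 library per group, no test was made. The members and the gene lists were chosen with earlier results of these data known. Named were the genes inside and beside Glis3, the 5 most like it, Tns1, Asap1 and Oxr1, gene-list members with a peak (1 is not reported here), the strongest and widest peaks, the extreme stretches and gaps, and peaks on exons. Other names, among them Magi1, Vldlr and Cdc37l1, were chosen after their values were seen. Alternatives were a limit of 1e-05, each pass alone, joining within 100 bases, single bins, and other windows and annotations.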

Additional observations from a re-analysis of the deposited data

How the results depend on the processing

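Across 13 results and 59 alternatives, 27 values stayed near the reported one (within its counting error, or for a count of peaks or genes within 1.5 times), 31 moved and 1 turned direction. The change of the densest intron on joining was counted as moved, although the order of introns 4 and 2 turned. Counts and densities of a pass alone fell of necessity, since a pass holds only part of the peaks. Keeping only peaks of p 1e-05 or less left 71 Glis3 peaks, of which 95.8% were intronic. They came to 0.260 peaks per kb in intron 4, and 81.7% lay nearer to the 5′ end of the gene. Their median gap was 3800 bases, their GC content 47.9% and their masked share 10.7%, and 7 pathway genes had such a peak. Of these peaks, 2.82% overlapped a peak of the other pass that met the same limit. A peak of any strength in the other pass overlapped 31 of the 71. The same limit turned the order at splice sites, where 4.23% of peaks lay within 100 bases beside 1.26% of bins. Those peaks were wider than a bin. The first pass alone had 398 peaks, 1.28 per kb in intron 4, a GC content of 45.1% and 12.1% masked bases. The second pass alone had 380, 1.21 per kb, 45.8%, 9.99% and a median gap of 600 bases. Joining peaks within 100 bases left 300 places, made intron 2 the densest at 0.973 per kb, put 63.7% nearer to the 5′ end of the gene and gave a median gap of 800 bases. Measured edge to edge the gap was 400 bases. Counting a peak of the other pass within 100 bases gave 82.1%, and an identical one 10.03%. Single-bin peaks had a GC content of 44.4% and 11.6% masked bases. The counting error of GC content and masked bases took each base as independent, so even small changes in them were counted as moved. The shares nearer to the 5′ end within introns were added after seeing the data. That of intron 2 was 62.3% when joined. That of intron 4 was 86.7% at p 1e-05 or less, 65.5% when joined and 71.9% for single bins. In each of these settings over 50% lay nearer to the 5′ end. The causes were not tested. With 1 library per group no paired or left-out analysis could be made, and depth is unknown. No paired analysis was possible because each group has 1 sample and the list names no library.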
